A study of Mus musculus with 17 samples.

Results

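The 10 genes Bdnf, Inhba, Nptx2, Scg2, Vgf, Pcsk1, Homer1, Dusp6, Rgs2 and Ptgs2 are grouped here as late activity-induced genes. They encode mostly secreted and synaptic proteins, and these data hold no time course to order their induction. They were found by symbol among the 22791 genes listed in all 4 count tables of a mouse study of ApoE and neurons (36271 genes were listed in at least 1 table). RNA was sequenced from 17 libraries of the C57BL/6 strain, 14 of them from primary neuron cultures and 3 from hippocampus. The neuron libraries formed 7 groups of 2 libraries each, in 3 experiments counted in separate tables. In the first experiment neurons had ADM treatment or its control treatment, and the labels do not spell out ADM. In a set called set 1 here, neurons had an ApoE particle or a control treatment. In set 2 neurons had an ApoE particle, a reconstituted ApoE particle or a control treatment. The hippocampus groups held 1 library each, from mice with ApoE shRNA and FC, with control shRNA and FC, and with control shRNA without FC, and FC is not spelled out either. No source used here gives how the particles were made, doses, times, the delivery of the shRNA, the age of the animals or whether tissue was pooled. Separate cultures behind the libraries of a group are not stated in the labels, so each p-value measures only the spread between these samples, which may be technical.

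When a neuron fires, calcium entry first switches on transcription factors such as Fos and Npas4, the immediate early genes, and a later set of effector genes follows. Calcium-activated CREB bound to cAMP response elements in promoters is a well known route to many of these effectors. They include growth factors, cargo and processing enzymes of dense-core granules, proteins that gather glutamate receptors at synapses, and brakes on the signalling that induced them, and in the hippocampus they are widely used as a readout of plasticity.

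Library totals lay between 14.62 M and 19.14 M counts. Levels are in CPM, counts made comparable by library size (scaled by TMM, the trimmed mean of M values, within each neuron table, and by library total in hippocampus), and changes are log2 fold changes ± SE from edgeR's quasi-likelihood test. A gene was called where its Benjamini-Hochberg adjusted p over all genes tested was under 0.05. The summed CPM of 6 pan-neuronal markers ran from 4721 to 7104 over the neuron libraries, and astrocyte sums from 675.9 to 6267. Neuronal transcripts were thus present in all these cultures, but not alone. In both set 1 ApoE particle libraries the astrocyte sums (6267 and 6031 CPM) were above the pan-neuronal sums (4921 and 4721 CPM). The 2 libraries of every neuron group differed beyond sampling noise: chi-square over its degrees of freedom was 2.63 (set 1 ApoE particle) to 68.1 (ADM). The second ADM library stood apart. Its 7 listed vessel and fibroblast markers (of 8) summed to 1171 CPM, against 51.87 CPM in the other ADM library. The ADM controls had 20.87 and 88.07 CPM, the higher value again in the second library. Astrocyte sums were also higher in the second library, at 1721 against 675.9 CPM in ADM controls and 1525 against 1045 CPM with ADM. The same held for microglia sums (28.95 against 5.41 and 18.74 against 5.62 CPM). Excitatory neuron sums were lower in both second libraries, and inhibitory neuron sums shared no direction.

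For 5 of the 8 genes with promoter sequence at hand, 1 window holds the core of the cAMP response element. These windows are shown because this element is the textbook link between calcium signals and this gene set. RefSeq windows on GRCm38.p6 were at hand for 8 of the 10 genes (15 windows, 7 of them for Bdnf), and not for Nptx2 and Vgf. The 250 bases upstream of each start annotated by RefSeq were searched on both strands for the core site TGACG or its complement CGTCA. The full element TGACGTCA, in which both core sites overlap, was searched too. These starts can differ from those of the gene spans given below, which come from another annotation. The windows shown for Scg2, Pcsk1 and Rgs2 lie partly inside those spans, with the full element of Scg2 within its span. Those for Homer1 and Bdnf lie wholly inside. Each sequence is given 5′ to 3′ on the gene's strand and the capitals mark the core sites.
Scg2: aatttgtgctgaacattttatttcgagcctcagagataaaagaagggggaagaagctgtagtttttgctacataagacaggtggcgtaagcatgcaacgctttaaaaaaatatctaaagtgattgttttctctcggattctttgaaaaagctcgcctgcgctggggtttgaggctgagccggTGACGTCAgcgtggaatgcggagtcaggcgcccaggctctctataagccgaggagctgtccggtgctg
Pcsk1: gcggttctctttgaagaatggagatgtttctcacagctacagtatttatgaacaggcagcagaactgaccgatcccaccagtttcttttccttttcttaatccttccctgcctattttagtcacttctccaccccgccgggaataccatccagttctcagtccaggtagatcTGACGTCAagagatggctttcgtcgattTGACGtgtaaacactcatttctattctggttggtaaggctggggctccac
Homer1: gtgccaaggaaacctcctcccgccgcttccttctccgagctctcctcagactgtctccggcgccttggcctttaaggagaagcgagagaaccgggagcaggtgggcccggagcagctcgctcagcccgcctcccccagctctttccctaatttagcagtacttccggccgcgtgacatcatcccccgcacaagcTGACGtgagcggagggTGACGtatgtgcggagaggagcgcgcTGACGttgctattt
Rgs2: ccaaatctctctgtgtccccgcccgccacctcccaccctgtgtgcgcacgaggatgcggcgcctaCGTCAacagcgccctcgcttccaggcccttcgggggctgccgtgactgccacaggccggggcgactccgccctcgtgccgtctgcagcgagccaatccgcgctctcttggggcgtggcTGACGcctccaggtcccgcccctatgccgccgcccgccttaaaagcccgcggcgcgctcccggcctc
Bdnf: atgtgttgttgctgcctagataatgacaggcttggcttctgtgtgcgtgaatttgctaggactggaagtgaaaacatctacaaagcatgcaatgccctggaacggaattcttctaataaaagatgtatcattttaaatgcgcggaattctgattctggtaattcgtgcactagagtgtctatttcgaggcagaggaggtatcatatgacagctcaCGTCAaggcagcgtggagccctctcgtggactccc
The Scg2 window (chr1:79440027-79440276, minus strand) and the Pcsk1 window (chr13:75089607-75089856, plus strand) hold the full element, with its core sites beginning at -68 and -65 in Scg2 and at -78 and -75 in Pcsk1, counted from the annotated start. Pcsk1 has another core site at -50. The first of 2 Homer1 windows (chr13:93303507-93303756, plus strand) has core sites at -56, -40 and -14, and the Rgs2 window (chr1:144004150-144004399, minus strand) at -185 and -67. The Bdnf window (chr2:109692186-109692435, plus strand) is the third of 7 and has 1 core site, at -35. Among 32851 mouse promoter windows of the same length, 1.55% held the full element, 17.8% at least 1 core site and 3.9% at least 2. Those shares are per window, while the 5 genes are counted per gene. Each of the 5 had a core site in 1 window, out of 15 windows for the 8 genes. A share per gene over all mouse genes was not counted. These matches describe the letters and show no binding. Inhba, Dusp6 and Ptgs2 had no match within 250 bases.

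Per length, Scg2 had the highest mean of the 10 genes in every neuron group, and Vgf came next in all but the ADM controls. Dividing CPM by kilobases of exon, Scg2 averaged 99.86 CPM per kb in set 2 ApoE particle neurons, 52.76 in reconstituted particle neurons and 59.51 in set 2 controls, and Vgf averaged 56.41, 36.61 and 40.04 CPM per kb in those groups. Ptgs2 was the lowest of the 10 in those 3 groups, at 0.33, 0.32 and 0.27 CPM per kb. In hippocampus the order at the top was turned: Vgf had 129.4, 131.6 and 87.58 CPM per kb with ApoE shRNA and FC, control shRNA and FC, and control shRNA without FC, above Scg2 at 90.68, 89.53 and 59.60.

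**Figure D1:**
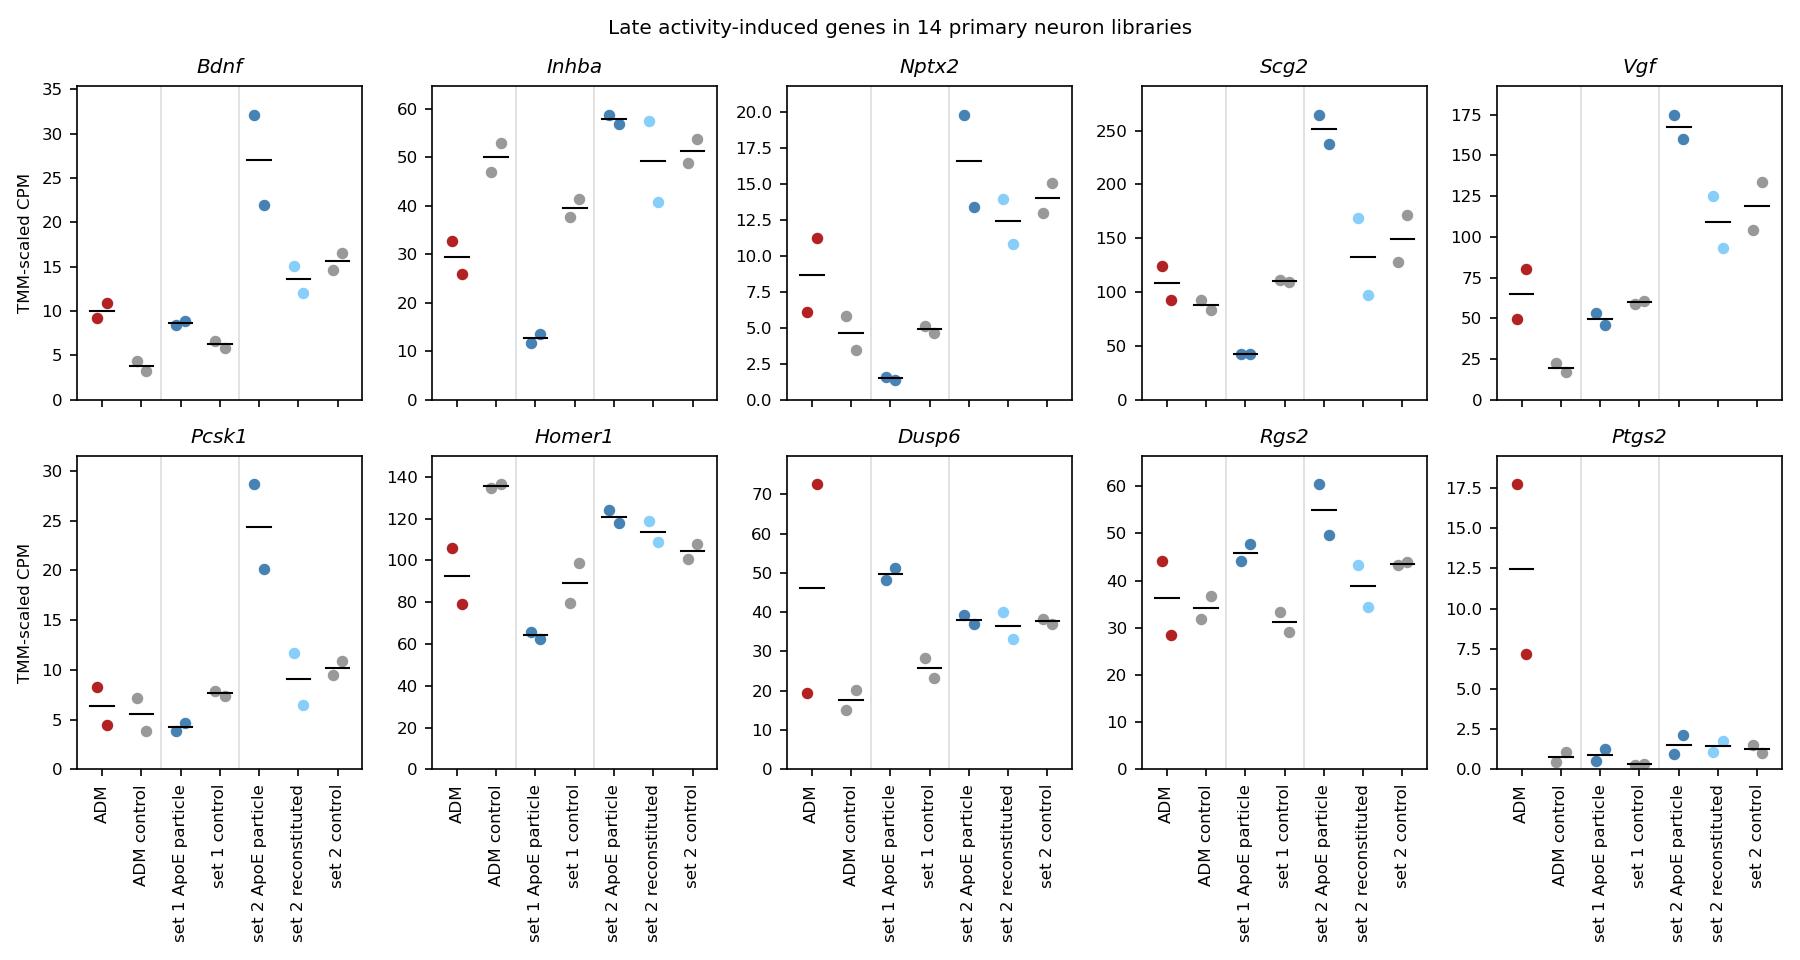
CPM of each of the 10 genes (vertical axis, linear, TMM-scaled within each table) in the 14 primary neuron libraries, by group. Points are libraries and bars are means of 2 libraries; thin lines part the 3 experiments, whose tables were scaled separately. Scg2 and Vgf in set 2 ApoE particle neurons lie above all other neuron libraries, and Ptgs2 is high only in the ADM libraries.

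The ApoE particle of set 2 went with higher levels of several of these genes. Relative to set 2 control neurons, Bdnf, Pcsk1, Homer1 and Rgs2 rose and none fell, 4 and 0 of 10. Over all 16388 genes tested, 10% were called higher and 12.1% lower. The median log2 fold change was 0.31 over the 10 genes and 0.00 over all genes. The count of risen genes depended on single libraries. It was lower without either control library or the first ApoE particle library, though not without the second ApoE particle library. Fewer genes were also called in all when any of these libraries was left out. Summed astrocyte markers were 1453 and 1641 CPM in the ApoE particle libraries, 1961 and 2105 CPM in the controls, and 5 of 8 fell and 1 rose. Vessel and fibroblast markers summed to 40.92 and 79.03 CPM in the ApoE particle libraries and 117.3 and 188.8 CPM in the controls, and 3 of 6 tested fell (median log2 fold change -0.96). Of the proliferating cell markers 4 of 7 fell and 1 rose (median -0.62), and of the inhibitory neuron markers 4 of 5 tested fell and 1 rose. The part of these markers in the result was not tested. Microglia markers were near 0 in set 2, at most 1.395 CPM summed over 7 genes, with 2 to 4 of them without a count in each library (Tmem119, C1qa and C1qb in the first ApoE particle library, for example). In bulk RNA, fewer cells of a type and less RNA per cell cannot be told apart.

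The reconstituted particle gave no called change against the same controls. Of the 10 genes 0 rose and 0 fell, beside 0% higher and 0% lower of all genes. At an unadjusted p under 0.05 there were 776 genes (4.74%), none of the 10 among them, and DESeq2 called 0 genes. Set against the ApoE particle directly, Bdnf, Pcsk1 and Rgs2 were lower in reconstituted particle neurons, 3 of 10, and none was higher, where 8.88% of all genes were called lower and 11.4% higher. The comparisons with control and with the ApoE particle share libraries, so their values stand side by side and are not independent of one another.

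In set 1 the ApoE particle went with a different picture. Relative to set 1 controls, Inhba, Nptx2, Scg2, Vgf, Pcsk1 and Homer1 fell and Dusp6 and Rgs2 rose, 6 and 2 of the 9 genes that passed the filter on low counts. Ptgs2 did not pass it. Changes were widespread in these libraries: 17.4% of 16475 genes were called lower and 18.9% higher. The median log2 fold change was -0.48 over the 9 genes and -0.01 over all genes. Cell type markers moved with these results. The 6 pan-neuronal markers summed to 4721 and 4921 CPM in the ApoE particle libraries against 6691 to 7043 CPM in the controls, and 5 of them fell. The 8 astrocyte markers summed to 6031 to 6267 CPM against 3599 to 4349 CPM, with 7 risen. The 8 microglia markers summed to 181.9 to 184.6 CPM against 44.91 to 56.18 CPM, with all 7 that were tested risen, and only Tmem119 in the second control library had no count. The 7 proliferating cell markers summed to 568.4 to 655.9 CPM against 197.9 to 218.3 CPM, with 7 risen. The vessel and fibroblast markers summed to 345.1 to 379.3 CPM against 82.1 to 114.5 CPM, with 4 risen and 1 fallen of 7 tested and Cldn5 without a count in all 4 libraries. Of the choroid plexus markers 3 of 4 tested rose, and of the excitatory neuron markers 5 of 6 fell (median log2 fold change -0.69, beside -0.62 for the pan-neuronal markers). Their part in the results was not tested.

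The difference between the particle effects of the 2 sets was itself tested, as the log2 fold change in set 2 minus that in set 1. It was called higher for Inhba, Nptx2, Scg2, Vgf, Pcsk1 and Homer1 and lower for Dusp6, 6 and 1 of 10, where 15.1% of 17272 genes were called higher and 16.5% lower. Bdnf, Rgs2 and Ptgs2 were not called. The sets differed in their controls too, as Nptx2 at 14.02 CPM in set 2 and 4.88 CPM in set 1 shows, and the labels do not say how the cultures or particles of the sets differed.

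**Figure D2:**
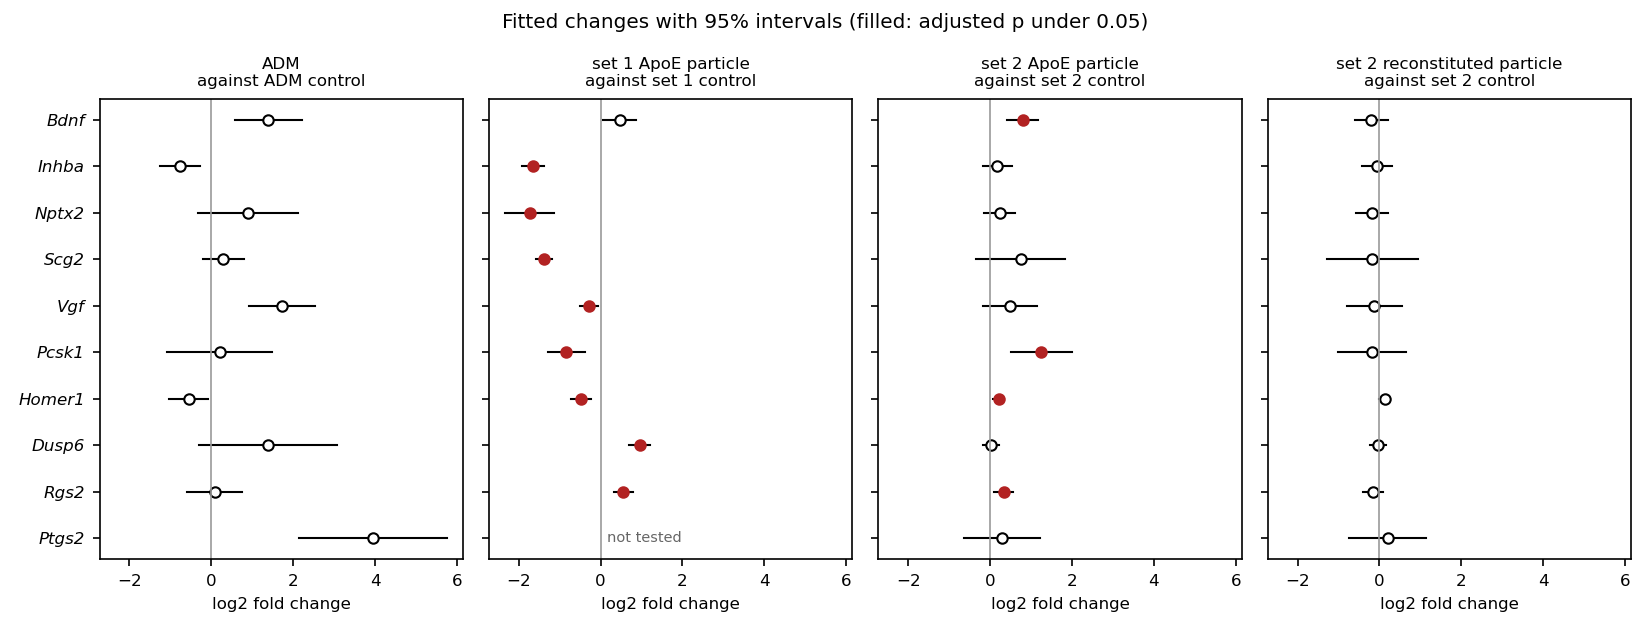
Log2 fold changes (horizontal axis) with 95% intervals for the 10 genes in ADM neurons, set 1 and set 2 ApoE particle neurons and reconstituted particle neurons, each against its own control group of 2 libraries. Filled points passed an adjusted p of 0.05: none with ADM, 8 in set 1, 4 with the set 2 ApoE particle and none with the reconstituted particle; Ptgs2 was not tested in set 1.

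ADM gave large but uneven differences. None of the 10 genes was called by edgeR's quasi-likelihood test, nor was any other of 16191 genes (0% higher, 0% lower). Bdnf, Vgf and Ptgs2 were higher and Inhba and Homer1 lower at an unadjusted p under 0.05, 5 of 10, where 8.81% of all genes (1426) were. In 6 of the 10 the libraries of the groups did not overlap, against 40.4% of all genes. DESeq2 called 304 genes, with Bdnf, Vgf and Ptgs2 risen, and without a filter on low counts edgeR called 128 genes, with Vgf and Ptgs2 risen. Without the first ADM library, Vgf, Dusp6 and Ptgs2 were called, and without the second, Ptgs2 (adjusted p = 0.0247). The vessel and fibroblast signal of the second ADM library was not tested as a part of this. The ADM change minus the set 1 particle change was called for none of the 10, with 0% of 17292 genes called higher and 0% lower. At an unadjusted p under 0.05 there were 5 of the 10. The share of all genes at that level was not counted for this contrast, so the 5 has no baseline. DESeq2 called Nptx2, Scg2 and Vgf higher, and its count over all genes is given with the other settings below.

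Bdnf encodes brain-derived neurotrophic factor, a secreted growth factor that strengthens synapses through the receptor TrkB. The gene (ENSMUSG00000048482) spans chr2:109674700-109727007 on the plus strand of GRCm38 (mm10), and its count sums transcripts from several promoters. Its exons share up to 497 bases with those of the antisense gene Gm45346, and since the strand setting of the counting is not given, reads of the pair cannot be told apart there. In set 2, Bdnf had 32.17 and 22 CPM in ApoE particle neurons, 15.12 and 12.01 CPM in reconstituted particle neurons, and 14.68 and 16.50 CPM in controls. Both ApoE particle libraries lay above every other set 2 library, and the reconstituted and control libraries overlapped. The log2 fold change was 0.79 ± 0.17 for the ApoE particle against control (adjusted p = 0.00519, edgeR) and -0.995 ± 0.18 for the reconstituted against the ApoE particle (adjusted p = 0.00141, edgeR). Against control the reconstituted particle gave -0.20, with a 95% interval of -0.60 to 0.20. Without the first set 2 control library the rise with the ApoE particle was 0.71 with an adjusted p of 0.0603 in edgeR.

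In set 1, Bdnf had 8.42 and 8.82 CPM in ApoE particle neurons and 6.62 and 5.87 CPM in controls. The groups did not overlap, but the log2 fold change of 0.47 ± 0.18 was not called (adjusted p = 0.0635, edgeR); it was with scaling by library totals alone (adjusted p = 0.033) and without the first control library (adjusted p = 0.0268). With ADM, Bdnf had 9.17 and 10.9 CPM against 4.39 and 3.22 CPM in controls. Both ADM libraries lay above both controls, with a log2 fold change of 1.40 ± 0.32 (adjusted p = 0.496 in edgeR, 0.0473 in DESeq2).

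Inhba encodes the activin A subunit, a secreted TGF-beta family ligand (ENSMUSG00000041324, chr13:16011851-16031621, plus strand). Levels in set 1 were 11.74 and 13.54 CPM in ApoE particle neurons and 37.56 and 41.35 CPM in controls. The particle libraries were well below both controls, with a log2 fold change of -1.64 ± 0.12 (adjusted p = 4.73e-06, edgeR). In set 2 no such fall was seen: Inhba had 58.77 and 56.86 CPM in ApoE particle neurons, 57.48 and 40.77 CPM in reconstituted particle neurons and 48.75 and 53.64 CPM in controls. The ApoE particle gave 0.18, with a 95% interval of -0.18 to 0.53, and the difference from set 1 was 1.79 ± 0.19 (adjusted p = 5.84e-06, edgeR). With ADM, Inhba had 32.73 and 25.98 CPM against 46.98 and 52.89 CPM in controls, a log2 fold change of -0.77 ± 0.19 that was not called (adjusted p = 0.519, edgeR). ADM and the set 1 ApoE particle thus each had Inhba below its own controls in both libraries.

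Nptx2 encodes neuronal pentraxin 2 (Narp), a secreted protein that clusters AMPA-type glutamate receptors (ENSMUSG00000059991, chr5:144545902-144557478, plus strand). Set 1 gave 1.598 and 1.349 CPM in ApoE particle neurons and 5.13 and 4.63 CPM in controls. The log2 fold change was -1.72 ± 0.27 (adjusted p = 0.000527, edgeR), the deepest fall of the 9 genes tested there. In set 2 it had 19.81 and 13.37 CPM in ApoE particle neurons, 13.96 and 10.82 CPM in reconstituted particle neurons and 12.98 and 15.05 CPM in controls. All 3 groups overlapped, and the ApoE particle gave 0.24, with a 95% interval of -0.14 to 0.62. It was called without the second ApoE particle library (0.50, adjusted p = 0.0303, edgeR). Set 2 minus set 1 was 1.94 ± 0.34 (adjusted p = 0.000198, edgeR). With ADM, Nptx2 had 6.09 and 11.21 CPM against 5.84 and 3.43 CPM in controls, and the fold of 0.90 ± 0.46 was not called (adjusted p = 0.623, edgeR).

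Scg2 encodes secretogranin II, a granin stored in dense-core granules (ENSMUSG00000050711, chr1:79434669-79440120, minus strand). Its set 1 levels were 42.66 and 41.98 CPM in ApoE particle neurons and 111.0 and 109.3 CPM in controls. Replicates agreed closely and the log2 fold change was -1.38 ± 0.09 (adjusted p = 1.91e-06, edgeR). Its set 2 levels were 264.9 and 237.4 CPM in ApoE particle neurons, 168.4 and 96.96 CPM in reconstituted particle neurons and 128.2 and 171.1 CPM in controls. Both ApoE particle libraries lay above all others, yet the control and reconstituted libraries were widely spread and neither the 0.75 ± 0.35 against control (adjusted p = 0.273, edgeR) nor the -0.92 ± 0.36 for the reconstituted against the ApoE particle (adjusted p = 0.211, edgeR) was called. The difference between the sets was the largest of the 10, 2.098 ± 0.40 (adjusted p = 0.0124, edgeR), and it lost its call without the second set 1 ApoE particle library (2.11, adjusted p = 0.0555). With ADM, Scg2 had 124.3 and 92.22 CPM against 92.87 and 83.21 CPM in controls, and these overlapped.

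Vgf encodes a granule protein that is cut into neuropeptides and is itself induced by neurotrophins (ENSMUSG00000037428, chr5:137026392-137033351, plus strand). Set 2 gave 175.1 and 160.3 CPM in ApoE particle neurons, 124.8 and 92.89 CPM in reconstituted particle neurons and 104.4 and 133.7 CPM in controls. As with Scg2, both ApoE particle libraries were the highest and the fold of 0.49 ± 0.22 was not called (adjusted p = 0.242, edgeR). The reconstituted against the ApoE particle gave -0.62 ± 0.22 (adjusted p = 0.176 in edgeR, 0.0464 in DESeq2). Set 1 gave 53.04 and 45.80 CPM in ApoE particle neurons and 58.91 and 60.80 CPM in controls. The fall of -0.28 ± 0.10 only just passed (adjusted p = 0.0475, edgeR). It did not pass with library totals (-0.17, adjusted p = 0.199), with DESeq2 (-0.28, adjusted p = 0.123), or without the first (-0.39, adjusted p = 0.0818) or the second (-0.18, adjusted p = 0.55) ApoE particle library. Set 2 minus set 1 was 0.74 ± 0.22 (adjusted p = 0.0317, edgeR). It was not called without the first (0.77, adjusted p = 0.184) or second (0.73, adjusted p = 0.2) set 1 control, the second set 1 ApoE particle library (0.67, adjusted p = 0.0895) or the first set 2 ApoE particle library (0.68, adjusted p = 0.0956). With ADM, Vgf had 49.80 and 80.52 CPM against 22.44 and 16.77 CPM in controls. Both ADM libraries were higher than both controls, with a log2 fold change of 1.73 ± 0.31 (adjusted p = 0.473 in edgeR, 0.000149 in DESeq2).

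Pcsk1 encodes prohormone convertase 1/3, an enzyme that cuts granule cargo such as proneuropeptides (ENSMUSG00000021587, chr13:75089826-75134861, plus strand). In set 2 it had 28.68 and 20.16 CPM in ApoE particle neurons, 11.68 and 6.46 CPM in reconstituted particle neurons and 9.52 and 10.92 CPM in controls. This was the largest rise of the 10 with the set 2 ApoE particle, 1.25 ± 0.30 (adjusted p = 0.0364, edgeR), and the largest fall of the reconstituted against the ApoE particle, -1.43 ± 0.31 (adjusted p = 0.0268, edgeR). The rise was not called without the first (1.16, adjusted p = 0.268) or the second (1.36, adjusted p = 0.198) set 2 control. The fall was not called without the first (-1.43, adjusted p = 0.112) or the second control (-1.44, adjusted p = 0.105), or with the 2 groups fitted alone (-1.43, adjusted p = 0.101). In set 1 Pcsk1 had 3.87 and 4.66 CPM in ApoE particle neurons and 7.92 and 7.36 CPM in controls. It fell by 0.83 ± 0.20 on the log2 scale (adjusted p = 0.00756, edgeR), a call lost without the first ApoE particle library (-0.71, adjusted p = 0.0762). Set 2 minus set 1 was 2.06 ± 0.36 (adjusted p = 0.000513, edgeR). With ADM, 8.30 and 4.46 CPM stood against 7.16 and 3.90 CPM in controls, and the groups overlapped.

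Homer1 encodes a postsynaptic scaffold that ties glutamate receptors to calcium stores, and its short form Homer1a, which uncouples that scaffold, is the one made on activity (ENSMUSG00000007617, chr13:93299635-93405129, plus strand). Gene counts do not separate the forms. Set 2 gave 124.0 and 117.8 CPM in ApoE particle neurons, 118.8 and 108.6 CPM in reconstituted particle neurons and 100.7 and 108.1 CPM in controls. The rise with the ApoE particle was small, 0.21 ± 0.06 (adjusted p = 0.0178, edgeR), and was not called without the first control library (0.16, adjusted p = 0.204) or the first ApoE particle library (0.18, adjusted p = 0.125). Set 1 gave 65.89 and 62.32 CPM in ApoE particle neurons and 79.48 and 98.77 CPM in controls, and it fell by 0.48 ± 0.11 on the log2 scale (adjusted p = 0.00524, edgeR). The directions in the 2 sets were opposite and their difference was 0.66 ± 0.13 (adjusted p = 0.000525, edgeR). With ADM, Homer1 had 106.0 and 79.08 CPM against 134.7 and 136.5 CPM in controls, a log2 fold change of -0.55 ± 0.18 that was not called (adjusted p = 0.553, edgeR).

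Dusp6 encodes a phosphatase that switches off the kinase ERK (ENSMUSG00000019960, chr10:99263231-99267489, plus strand). Levels in set 1 were 48.19 and 51.36 CPM in ApoE particle neurons and 28.35 and 23.19 CPM in controls. It rose by 0.95 ± 0.12 on the log2 scale (adjusted p = 9.63e-05, edgeR), against the direction of the secreted genes Inhba, Nptx2 and Scg2 in the same libraries. In set 2 it was nearly level, at 39.38 and 36.87 CPM in ApoE particle neurons, 40.08 and 33.06 CPM in reconstituted particle neurons and 38.27 and 37.07 CPM in controls. The ApoE particle gave 0.02, with a 95% interval of -0.18 to 0.21, and the difference from set 1 was -0.96 ± 0.15 (adjusted p = 7.73e-05, edgeR). With ADM the libraries disagreed, with 19.54 and 72.57 CPM against 15.16 and 20.20 CPM in controls. The high value came from the library with the strong vessel and fibroblast signal, and a link to that signal was not tested. Without the first ADM library the log2 fold change was 2.02, in place of 1.38 ± 0.64 (adjusted p = 0.6, edgeR).

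Rgs2 encodes a brake on Gq-coupled receptor signalling (ENSMUSG00000026360, chr1:143999338-144004161, minus strand). It rose with the ApoE particle in both sets. In set 1 it had 44.07 and 47.66 CPM in ApoE particle neurons and 33.28 and 29.07 CPM in controls, a log2 fold change of 0.56 ± 0.11 (adjusted p = 0.00182, edgeR). In set 2 it had 60.43 and 49.57 CPM in ApoE particle neurons, 43.40 and 34.49 CPM in reconstituted particle neurons and 43.20 and 43.87 CPM in controls. The ApoE particle gave 0.34 ± 0.11 (adjusted p = 0.0392 in edgeR, 0.0625 in DESeq2) and the reconstituted against the ApoE particle -0.50 ± 0.11 (adjusted p = 0.0048, edgeR). The set 2 rise was not called without the first (0.32, adjusted p = 0.166) or the second (0.35, adjusted p = 0.117) control or the first ApoE particle library (0.19, adjusted p = 0.276). Set 2 minus set 1 was -0.25, with a 95% interval of -0.59 to 0.09. With ADM, 44.18 and 28.45 CPM overlapped the controls at 31.82 and 36.65 CPM.

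Ptgs2 encodes cyclooxygenase 2, the inducible enzyme of prostaglandin synthesis, which neurons and other cell types both make (ENSMUSG00000032487, chr1:150100031-150108227, plus strand). With ADM it had 17.74 and 7.17 CPM against 0.48 and 1.11 CPM in controls. Both ADM libraries were far above both controls, with a log2 fold change of 3.95 ± 0.69 (adjusted p = 0.473 in edgeR, 1.63e-06 in DESeq2). The higher of the ADM values came from the library without the strong vessel and fibroblast signal, and a link to that signal was not tested. In set 1 it was too low to test, with 8 and 23 counts in the ApoE particle libraries and 4 and 6 in the controls. In set 2 it stayed low, with 0.95 and 2.12 CPM in ApoE particle neurons, 1.11 and 1.79 CPM in reconstituted particle neurons and 1.53 and 0.99 CPM in controls, and the groups overlapped.

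**Figure D3:**
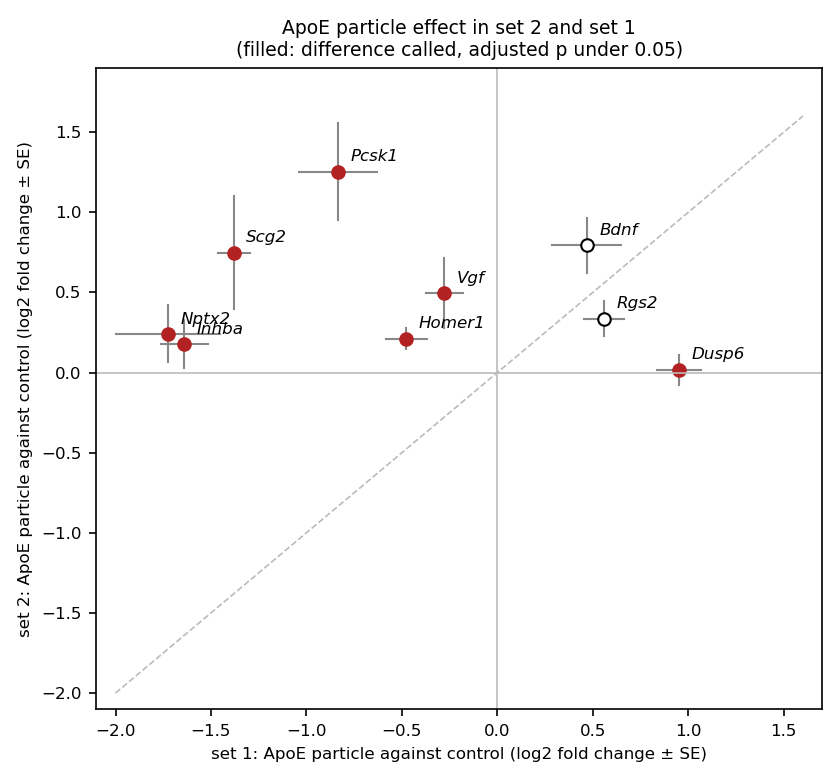
Log2 fold change of the ApoE particle against control in set 1 (horizontal axis) and in set 2 (vertical axis), each ± SE from 2 libraries a group, for the 9 genes tested in both. Filled points had a called difference between the sets; Inhba, Nptx2, Scg2, Vgf, Pcsk1 and Homer1 lie left of 0 and above the dashed line of equal change, Dusp6 lies below the line, and Bdnf and Rgs2 (open) lie right of 0 and above 0.

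In hippocampus the control shRNA library with FC had more of these transcripts than the one without. Single libraries allow no test, so ratios of CPM are given with exact 95% binomial intervals that cover counting error only, and genes of at least 100 counts in either library counted as past the limit at 1.5-fold. With FC, 7 of the 10 genes were past it upward and 0 downward, where 12.3% of 12510 genes were higher and 4.46% lower. The median log2 ratio was 0.68 over the 10 genes and 0.03 over all. Inhba had 33.39 CPM with FC against 7.27 CPM without, a 4.58-fold ratio (log2 2.196, interval 1.93 to 2.48). Nptx2 had 91.3 against 19.98 CPM, 4.56-fold (log2 2.19, interval 2.03 to 2.36). These secreted proteins had the highest ratios of the 10. Pcsk1 followed with 79.89 against 29.51 CPM (2.71-fold) and Homer1 with 245.1 against 100.8 CPM (2.43-fold). Bdnf had 55.04 against 32.42 CPM (1.7-fold).

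The granule cargo and the signalling brakes differed less in these libraries. Scg2 had 225.2 CPM with FC and 149.9 CPM without, and Vgf had 391.3 and 260.4 CPM, each 1.5-fold and just inside the limit. Rgs2 lay just outside it at 54.14 and 36.55 CPM (1.48-fold). Ptgs2 had 34.35 and 25.54 CPM (1.34-fold) and Dusp6 89.73 and 69.69 CPM (1.29-fold). With TMM scaling Scg2 and Vgf fell below 1.5-fold and 5 genes were past it.

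ApoE shRNA with FC was set against control shRNA with FC. Apoe itself had 1384 CPM with ApoE shRNA and FC and 2797 CPM with control shRNA and FC, and 1697 CPM in the control shRNA library without FC. Of the 10 genes, 4 were past 1.5-fold lower and 0 higher, where 17.9% of 12474 genes were lower and 4.46% higher. Inhba had 11.17 CPM with ApoE shRNA against 33.39 CPM (log2 ratio -1.58, interval -1.81 to -1.35), and Homer1 had 116.9 against 245.1 CPM (log2 ratio -1.07, interval -1.14 to -0.99). Pcsk1 had 46.3 against 79.89 CPM and Nptx2 53.5 against 91.3 CPM, with log2 ratios of -0.79 and -0.77. The other genes kept closer to the control shRNA library. Bdnf had 43.39 CPM against 55.04, Rgs2 39.58 against 54.14, Ptgs2 25.14 against 34.35 and Dusp6 76.25 against 89.73. Scg2 (228.1 against 225.2 CPM) and Vgf (384.6 against 391.3 CPM) had log2 ratios of 0.02 and -0.03, both with intervals that span 0. With TMM scaling the ratios were 0.083 for Scg2 and 0.039 for Vgf. Both lie above the upper ends of those intervals (0.081 and 0.023), which cover counting error only.

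The ApoE shRNA library with FC was also set against the control shRNA library without FC, with which it differs in both respects. Nptx2 (2.67-fold), Pcsk1 (1.57-fold), Inhba (1.53-fold) and Scg2 (1.52-fold) were past the limit upward, 4 of 10, and none downward, where 1.14% of 11980 genes were higher and 6.09% lower. The 3 ratios share libraries and are not independent. The control shRNA library with FC stood apart in its cell markers: its 8 microglia markers summed to 1264 CPM, against 232.5 CPM in the ApoE shRNA library and 307.8 CPM in the library without FC. Its astrocyte markers summed to 7469 CPM, against 3627 and 4435 CPM in those libraries. Apoe, the target of the shRNA, is one of these astrocyte markers. It alone had 2797 CPM there, against 1384 CPM in the ApoE shRNA library and 1697 CPM in the library without FC. Its 6 excitatory neuron markers gave a mixed picture. Their sum was lower, 4688 CPM against 6547 and 5955 CPM, yet 3 of the 6 were past 1.5-fold higher and 0 lower with FC than without under control shRNA (median log2 ratio 0.24). With ApoE shRNA and FC, 3 of the 6 were lower and 1 higher than with control shRNA and FC. The part of these differences in the values of the 10 genes was not tested. None of the listed microglia, astrocyte or excitatory neuron markers was without a count in any of the 3.

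**Figure D4:**
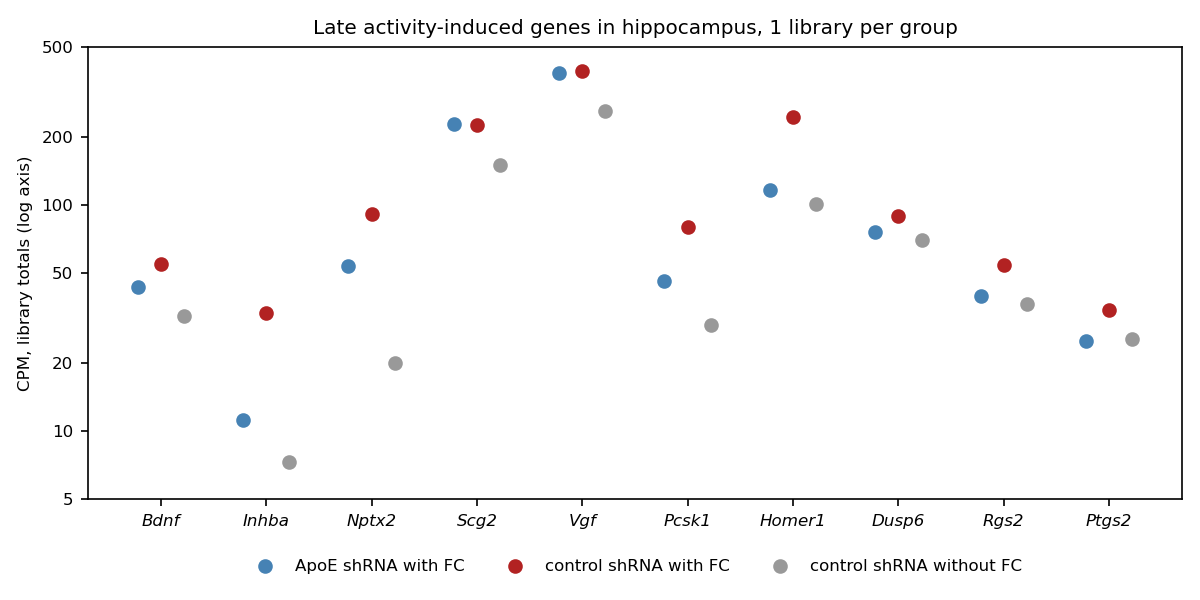
CPM (vertical axis, log scale, by library totals) of the 10 genes in 3 hippocampus libraries, 1 per group, with no error bars because there are no replicates. The control shRNA library with FC is the highest beyond counting error for 8 of the 10 genes. For Scg2 and Vgf the ApoE shRNA library with FC is level with it, within counting error.

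Counts for 6 lists of related genes are read beside the shares called over all genes: 18.9% higher and 17.4% lower in set 1, 10% higher and 12.1% lower with the set 2 ApoE particle, and 11.4% higher and 8.88% lower for the reconstituted against the ApoE particle. The first list holds immediate early genes, transcription factors and other early responders. With the set 2 ApoE particle, 9 of 18 rose and 2 fell. Fosb, a Fos family factor, averaged 12.79 ± 2.65 CPM in ApoE particle neurons and 2.45 ± 0.98 CPM in controls (SD, 2 libraries each; log2 fold change 2.38 ± 0.27, adjusted p = 2.19e-06, edgeR). Jun, its partner in the AP-1 factor, fell to 73.5 ± 1.17 CPM with the ApoE particle, against 138.2 ± 3.07 CPM in controls (log2 fold change -0.91 ± 0.06, adjusted p = 9.3e-11, edgeR). For the reconstituted against the ApoE particle, 9 of the 18 fell and 2 rose. In set 1, 5 rose and 3 fell: Nr4a2, an orphan nuclear receptor, changed by -1.58 ± 0.19 (adjusted p = 8.73e-05, edgeR) and Atf3, a stress-responsive factor, by 1.34 ± 0.17 (adjusted p = 0.000159, edgeR). In hippocampus 4 of 18, Arc, Egr1, Egr3 and Atf3, were past 1.5-fold higher in the control shRNA library with FC than in the one without, beside 12.3% of all genes. Fos had 54.87 CPM with FC and 46.62 CPM without, and Npas4 31.71 and 41.84 CPM.

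Receptors and inhibitors of BDNF and activin gave mixed counts. In set 1, 2 of 14 rose and 5 fell, and Fst, which encodes the activin antagonist follistatin, fell with Inhba: it averaged 11.18 ± 0.87 CPM in ApoE particle neurons and 35.95 ± 0.26 CPM in controls (log2 fold change -1.69 ± 0.12, adjusted p = 3.75e-06, edgeR). Smad3, a transducer of activin signals, rose by 0.99 ± 0.12 on the log2 scale (adjusted p = 8.06e-05, edgeR). In set 2, 2 rose and 2 fell with the ApoE particle. The activin receptor gene Acvr2a rose, with 239.9 ± 3.19 CPM against 169.5 ± 2.15 CPM in controls (log2 fold change 0.50 ± 0.05, adjusted p = 3.81e-08, edgeR). Ngfr, the low-affinity neurotrophin receptor p75, fell, with 3.29 ± 0.31 CPM against 8.43 ± 0.91 CPM (log2 fold change -1.35 ± 0.21, adjusted p = 3.18e-05, edgeR).

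Of 10 other dense-core granule genes, 6 fell, 1 rose and 3 did not pass in set 1, with a median log2 fold change of -0.59. The pan-neuronal markers had a median of -0.62 in the same libraries, with 5 of 6 fallen, and the part of this in the granule genes was not tested. Pcsk2, a second prohormone convertase, averaged 47.01 ± 0.44 CPM in ApoE particle neurons and 96.47 ± 5.05 CPM in controls (log2 fold change -1.04 ± 0.09, adjusted p = 9.3e-06, edgeR), and Chga, chromogranin A, 78.18 ± 3.91 and 127.3 ± 11.04 CPM (adjusted p = 0.000174, edgeR). In set 2, 2 rose and 2 fell, the risen ones being Pam, which amidates peptides (0.35 ± 0.07, adjusted p = 0.0016, edgeR), and Cpe, which trims them (0.29 ± 0.06, adjusted p = 0.00164, edgeR). Among binding partners of Nptx2 and Homer1, 9 of 12 fell and 1 rose in set 1, with a median log2 fold change of -0.55 that is near that of the pan-neuronal markers. With the set 2 ApoE particle 4 of the 12 fell and 0 rose. The pentraxin receptor Nptxr fell by 0.73 ± 0.09 on the log2 scale in set 1 (adjusted p = 0.000108, edgeR), while Homer3, another Homer scaffold, rose by 1.11 ± 0.15 (adjusted p = 0.000168, edgeR). In set 2 the falls included Gria1, an AMPA receptor subunit, at 242.3 ± 8.84 CPM against 299.6 ± 4.78 CPM, and Shank2, a postsynaptic scaffold, at 186.9 ± 1.99 CPM against 229.7 ± 3.45 CPM. None of these partners was called higher with Homer1 in set 2.

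Of 12 genes of the ERK pathway and its brakes, 3 rose and 4 fell in set 1, and 2 rose and 1 fell with the set 2 ApoE particle, counts close to the all-gene shares in set 2. Mapk3, which encodes the kinase ERK1, fell in both, by 0.51 ± 0.09 (adjusted p = 0.000901, edgeR) and by 0.26 ± 0.06 (adjusted p = 0.00203, edgeR) on the log2 scale. Dusp7, a relative of Dusp6, fell by 0.48 ± 0.11 in set 1 (adjusted p = 0.00532, edgeR), opposite to Dusp6. Of the Gq and prostaglandin genes, 1 of 10 tested rose and 2 fell in set 1, where Rgs4, a relative of Rgs2, fell by 0.61 ± 0.10 on the log2 scale (adjusted p = 0.000654, edgeR) and Pla2g4a, which frees the substrate of Ptgs2, rose by 1.85 ± 0.33 (adjusted p = 0.00113, edgeR). In set 2, 1 of 9 rose, the prostaglandin receptor gene Ptger3 (0.63 ± 0.12, adjusted p = 0.000501, edgeR). By edgeR, in none of the 6 lists was a gene called with ADM or with the reconstituted particle against control. No gene at all was called in those comparisons (0% higher, 0% lower), so these counts say nothing particular to the lists. With ADM the list medians ran from -0.30 (Nptx2 and Homer1 partners) to 0.93 (immediate early genes) on the log2 scale. The median over all genes was 0.02.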

How the data were processed

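The deposited values were raw counts per gene, whole numbers with no normalization by the authors. The submitters' processing notes name HISAT2 2.1.0, Bowtie2 2.2.3, HTSeq 0.6.0 and mm10, with no role or strand setting given in the sources used here. Per the labels, total RNA was made into libraries with the NEBNext Ultra kit. All per-sample columns were mapped to samples by name. In set 2, 1489 genes without values in the control and ApoE particle libraries were left out.

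Neuron counts were filtered by filterByExpr, scaled by TMM and tested with edgeR 4.0.16 in R 4.3.3 (robust quasi-likelihood fit, Benjamini-Hochberg over all genes of a comparison, threshold 0.05). The 3 groups of set 2 shared a fit, and the differences between experiments were interaction contrasts. The procedure was tried on simulated counts of independent libraries, which hold no shift in cell types and no deviation shared by same-numbered libraries. That trial checks the calculation and not how far these data meet its assumptions. Hippocampus ratios used a prior of 0.5 counts. Exon lengths and gene positions came from a GRCm38 annotation whose positions matched those in the tables for all 10 genes, and promoter sequences from RefSeq. Alternatives were DESeq2 1.42.0, other scalings, no filter, a replicate block, fewer groups and leaving out each library. Named genes were the 10 members throughout, up to 2 called genes with the lowest adjusted p from each of 6 lists per comparison, Apoe, and each member's nearest gene; the hippocampus immediate early genes Arc, Egr1, Egr3, Atf3, Fos and Npas4 were named after their values were seen. The members and all lists were chosen with earlier results of these data known.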

Additional observations from a re-analysis of the deposited data

Results flagged for a closer look

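The ApoE particle effect differed between set 2 and set 1 for 7 of the 10 genes, by edgeR's test of the difference itself with Benjamini-Hochberg adjustment; over all 17272 genes tested, 15.1% were called higher and 16.5% lower. The log2 difference, set 2 minus set 1, was 2.098 for Scg2, 2.06 for Pcsk1, 1.94 for Nptx2 and 1.79 for Inhba. It was 0.74 for Vgf and 0.66 for Homer1, and -0.96 for Dusp6. Scg2 was not called without the second set 1 ApoE particle library (2.11, adjusted p = 0.0555). Vgf was not called without the first (0.77, adjusted p = 0.184) or the second (0.73, adjusted p = 0.2) set 1 control, the second set 1 ApoE particle library (0.67, adjusted p = 0.0895) or the first set 2 ApoE particle library (0.68, adjusted p = 0.0956). With the particle, 1 of 8 astrocyte and 1 of 7 proliferating cell markers rose and 5 and 4 fell in set 2, against 7 of 8 and 7 of 7 risen in set 1. Microglia markers were too low to test in set 2, and 7 of 7 tested rose in set 1. Their part in the differences was not tested.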

How the results depend on the processing

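No value changed sign while called. With 2 libraries a group the precision is low, and hippocampus values have no replicate error at all. Counts of members called were within 1.5 times of those reported under most settings, and the cause of each change was not tested. For ADM, dropping the filter gave 2 members risen and 128 genes called, and DESeq2 gave 3 and 304. For ADM minus set 1, dropping the filter gave 2 members higher and 62 genes, DESeq2 3 and 201, and RLE size factors 1 gene. In set 2 DESeq2 called 2358 genes for the ApoE particle (edgeR 3617) and 2182 for the reconstituted against the ApoE particle (edgeR 3319). In that last comparison dropping the filter gave 5 members fallen. For the reconstituted particle against control, dropping the filter gave 8 genes and fitting the 2 groups alone 4.

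Leaving out each library in turn gave 0 to 3 members risen and 0 to 641 genes for ADM, and 0 to 3 members and 0 to 555 genes for ADM minus set 1. It gave 2 to 3 members risen, 4 to 6 fallen and 3521 to 7610 genes in set 1. It gave 0 to 5 members risen and 2297 to 3836 genes for the set 2 ApoE particle, and 1 to 4 genes for the reconstituted particle against control. The reconstituted against the ApoE particle had 2 to 4 members fallen and 2249 to 3314 genes, and set 2 minus set 1 had 4 to 6 members higher, 1 lower and 3952 to 6064 genes. Where 1 library was left in a group, it was assumed to vary like the other groups.

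The labels give libraries the same replicate numbers without saying that a number marks a shared culture. With 2 pairs, the correlation of same-numbered deviations from the group means was 0.62 for ADM, 0.06 in set 1 and -0.16 to 0.10 in set 2. A replicate block gave 465 genes and 0 members for ADM, 502 genes and 1 member (Scg2, adjusted p = 0.00339, edgeR) for ADM minus set 1, and 1 gene for the reconstituted particle against control. In set 2 minus set 1 the block took the calls of Scg2 (adjusted p = 0.0608, edgeR) and Vgf (adjusted p = 0.107, edgeR). It changed no other member's call.

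At 2-fold in place of 1.5-fold, hippocampus members past the limit numbered 4 (and 979 genes in all) for FC, 2 (1283 genes) for ApoE shRNA against control shRNA with FC, and 1 (204 genes) for ApoE shRNA with FC against control shRNA without FC.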

Other observations

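For each member, the gene with the most similar set of log2 fold changes over the 4 comparisons with a control group (ADM, set 1 and set 2 ApoE particle, reconstituted particle) was found among 10432 or 10433 expressed genes by Euclidean distance on the log2 scale. Set 2 supplied the control libraries of 2 of those comparisons. Rgs2 lay nearest to Pdk3, a kinase of the pyruvate dehydrogenase complex (distance 0.074), and Homer1 to Dusp7, an ERK phosphatase (0.11). Dusp6 lay nearest to Tpp1, a lysosomal protease (0.13). Pcsk1 lay nearest to Aars, which encodes alanyl-tRNA synthetase (0.18). Aars had log2 fold changes of 1.18 with the set 2 ApoE particle and -0.92 with the set 1 ApoE particle, beside 1.25 and -0.83 for Pcsk1.

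The larger distances were those of Vgf to Spry4, an inhibitor of receptor tyrosine kinase signals (0.25), Scg2 to Tmem179 (0.34), Inhba to Bean1 (0.39), Bdnf to Rhbdd1 (0.42) and Nptx2 to the neurofilament gene Nefl (0.45). Vgf and Spry4 had log2 fold changes of 1.73 and 1.80 with ADM. Ptgs2 was not tested in set 1 and has no nearest gene.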
